A study of Mus musculus with 10 samples.

Results

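Described here are 10 mouse genes that encode the cytosolic sensors of RNA and DNA, their adaptors and the kinases on which they act. They are Ddx58, Ifih1, Dhx58, Mavs, Mb21d1, Tmem173, Tbk1, Ikbke, Ikbkb and Chuk, found by matching these symbols to the Ensembl identifiers of the deposited table, which holds 45318 identifiers. Ddx58 is also known as Rigi, Mb21d1 as Cgas and Tmem173 as Sting1. All 10 were present, and all 10 were among the 13171 genes that passed the filter on low values (2 or more libraries at 10 or above). The cells were macrophages derived in culture from the bone marrow of C57BL/6 mice, and there were 5 groups of 2 libraries. Cells labelled Tlr4 -/- (KO) were pre-treated with Poly(I:C) for a time the labels do not give, kept 6 h in medium with 5% FBS and 2% BSA (control), or left untreated. Cells labelled wild type (WT) were either kept for the same 6 h in that control medium or left untreated. TLR4 is the cell surface receptor for bacterial lipopolysaccharide, and Poly(I:C) is a synthetic double-stranded RNA. Whether the 2 libraries of a group are from different cultures or mice is not stated in the labels, so p-values here measure the spread between libraries that may be technical repeats.

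RIG-I, MDA5 and LGP2, the products of Ddx58, Ifih1 and Dhx58, are RNA helicases that bind double-stranded RNA in the cytosol, and RIG-I and MDA5 then engage MAVS, an adaptor on the outer mitochondrial membrane. DNA in the cytosol is bound by cGAS, the product of Mb21d1, which makes the cyclic dinucleotide cGAMP, and cGAMP binds STING, the product of Tmem173, at the endoplasmic reticulum. Both adaptors recruit TBK1 and IKKε, the product of Ikbke, which phosphorylate the interferon regulatory factors IRF3 and IRF7, while IKKβ and IKKα, the products of Ikbkb and Chuk, release NF-κB from its inhibitors. Interferons in turn raise the transcripts of many of these sensors through interferon-stimulated response elements in their promoters, so that macrophages exposed to a virus or to its RNA carry more of the sensors than resting cells.

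Promoter sequences are shown for 4 genes that span the observed range of differences: Ddx58 and Ifih1, the sensors with the largest differences, Ikbke, the kinase with the largest difference, and Mavs, which moved the opposite way. They were taken from RefSeq windows of 250 bases before and 50 bases after the start of each gene in GRCm38.p6. A window was present for 7 of the 10 genes, and those of Dhx58, Ikbkb and Tmem173 were not analysed here. Each window was searched on both strands for the core of the interferon-stimulated response element, GAAA followed by any 2 bases and GAAA again, and for the NF-κB consensus. The core was found in the windows of Ddx58 and Ifih1, 2 of 7 genes, and in 3.44% of 32851 RefSeq windows. Capitals mark that core, on the opposite strand in Ddx58 at bases 3 to 12 of the transcript and on the gene's own strand in Ifih1 at bases 33 to 42. The Mavs and Ikbke runs, which end at the base before the RefSeq start, hold no match. For Ddx58 and Ikbke that start differs from the gene coordinates given below, which come from GENCODE M21. The end of the Ikbke run therefore lies inside the gene as placed there.
Ddx58, chr4:40239814-40240075, minus strand: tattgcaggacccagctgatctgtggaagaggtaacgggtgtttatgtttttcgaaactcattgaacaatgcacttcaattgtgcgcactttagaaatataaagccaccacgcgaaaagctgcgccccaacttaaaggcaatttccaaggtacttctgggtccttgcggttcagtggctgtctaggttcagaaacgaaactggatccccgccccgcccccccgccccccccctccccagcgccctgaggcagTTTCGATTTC
Ifih1, chr2:62646206-62646235, minus strand: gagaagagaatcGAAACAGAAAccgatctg
Ikbke, chr1:131279564-131279813, minus strand: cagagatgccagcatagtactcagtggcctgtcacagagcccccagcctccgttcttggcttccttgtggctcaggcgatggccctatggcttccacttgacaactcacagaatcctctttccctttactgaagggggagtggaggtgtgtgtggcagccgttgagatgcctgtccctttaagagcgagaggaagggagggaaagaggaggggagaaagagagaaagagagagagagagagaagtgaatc
Mavs, chr2:131233813-131234062, plus strand: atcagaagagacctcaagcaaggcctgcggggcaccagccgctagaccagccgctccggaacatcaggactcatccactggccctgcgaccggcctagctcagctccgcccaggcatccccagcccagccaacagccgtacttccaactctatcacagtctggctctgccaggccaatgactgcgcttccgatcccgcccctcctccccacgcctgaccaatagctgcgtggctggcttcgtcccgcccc

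Neither core lies upstream of the start: in the 150 bases up to it the core was present in 0 of the 7 genes and in 1.59% of windows. The NF-κB consensus matched 0 of the 7 windows and 8.46% of all windows. A shorter spacing, with 1 base between GAAA and GAAA, chosen after the windows had been read, was present in Ddx58 alone among the 7, at bases -60 to -52, and in 3.17% of windows. These matches describe letters and not binding. In the 250 bases before the start, Tbk1 had 31 CpG dinucleotides and 68.4% G and C, Mavs 15 and 65.2%, and Ikbke 4 and 54.4%, against medians of 6 and 52.4% over all windows.

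Deposited totals were 25.2 to 51.7 M units per library, highest in KO Poly(I:C) (47.5 and 51.7 M) and WT control cells (42.0 and 41.1 M). Replicates correlated at 0.992 to 0.994 across genes. On the first principal component, which held 83.4% of the variance, KO Poly(I:C) and WT control libraries lay on one side (71.7 to 105) and the other 6 on the other (-69.2 to -47.3). Tlr4 itself was not lost in libraries labelled KO. It had 47.9 and 63.4 CPM in KO Poly(I:C) cells, 30.8 and 34.6 CPM in KO control, 44.4 and 44.9 CPM in KO untreated, 32.3 and 39.0 CPM in WT control, and 60.1 and 69.1 CPM in WT untreated cells. The table gives 1 value per gene, so it cannot show a deletion of part of the transcript, and genotypes are given as labelled. The summed level of 7 macrophage markers was 23371 to 27563 CPM in every library, while the 4 T and NK cell markers and the 3 mast cell and basophil markers were at 0. Lyz2 made up most of the macrophage sum (14665 to 19155 CPM), and single markers varied, such as Fcgr1 (114 to 1559.8 CPM) and Mertk (38.2 to 111 CPM). By the test described below, 3 of the 7 were higher and 1 lower in WT control than in WT untreated cells. The same numbers held for KO Poly(I:C) against KO control cells, with 2 higher and 2 lower in KO control against WT control cells. Of all genes 65.8%, 69.4% and 61.1% were called in these comparisons, in the same order. In KO control against KO untreated cells 2 of the 7 were higher and 3 lower, where 20.0% of all genes were called. The markers of dendritic cells (at most 0.852 CPM summed), B cells (at most 0.227 CPM) and stromal cells (2.32 to 4.96 CPM) were near 0. The sums of 2 other marker lists moved with the groups. Erythroid and platelet markers, nearly all of it Pf4 and Ppbp, summed to 385 to 418 CPM in KO Poly(I:C), 218 to 237 CPM in KO control, 383 to 463 CPM in KO untreated, 312 to 398 CPM in WT control and 380.2 to 521 CPM in WT untreated cells. The summed level of 8 neutrophil markers was 100.4 to 106 CPM in KO Poly(I:C), 16.3 to 20.8 CPM in KO control, 27.0 to 30.6 CPM in KO untreated, 85.0 to 114 CPM in WT control and 20.6 to 37.4 CPM in WT untreated cells. S100a8 and S100a9 reached at most 46.8 and 45.7 CPM, and Ly6g, a defining marker, at most 0.220 CPM. The part of these cells in the differences described for the 10 genes was not tested. In bulk RNA, fewer cells of a type and less RNA per cell cannot be told apart.

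Levels are in CPM, the deposited values per 1000000 of the library total after scaling the libraries by a trimmed mean of log ratios, and differences are log2 differences of CPM plus 0.1, tested with limma across all 13171 genes. "Higher" or "lower" calls have a Benjamini-Hochberg adjusted p under 0.05, and no fold threshold was used. Scaling by library totals alone shifts the median log2 difference of all genes by 0.47 for KO against WT control cells, by -0.52 for WT control against WT untreated and by -0.69 for KO Poly(I:C) against KO control. The smaller differences therefore depend on the scaling.

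The 10 genes are listed here by the size of their range across the 5 groups, whatever its direction. The ratio of the highest to the lowest group mean was 24.1 for Ifih1, 13.1 for Ddx58 and 10.1 for Dhx58. It was 3.20 for Ikbke, 3.08 for Mavs, 3.07 for Mb21d1, 2.90 for Tbk1 and 2.18 for Tmem173, and 1.55 for Ikbkb and 1.35 for Chuk. In 9 of the 10 genes KO Poly(I:C) cells had the highest mean and WT control cells the next. Mavs ran the other way, with KO Poly(I:C) cells lowest and WT control cells next to lowest.

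**Figure D1:**
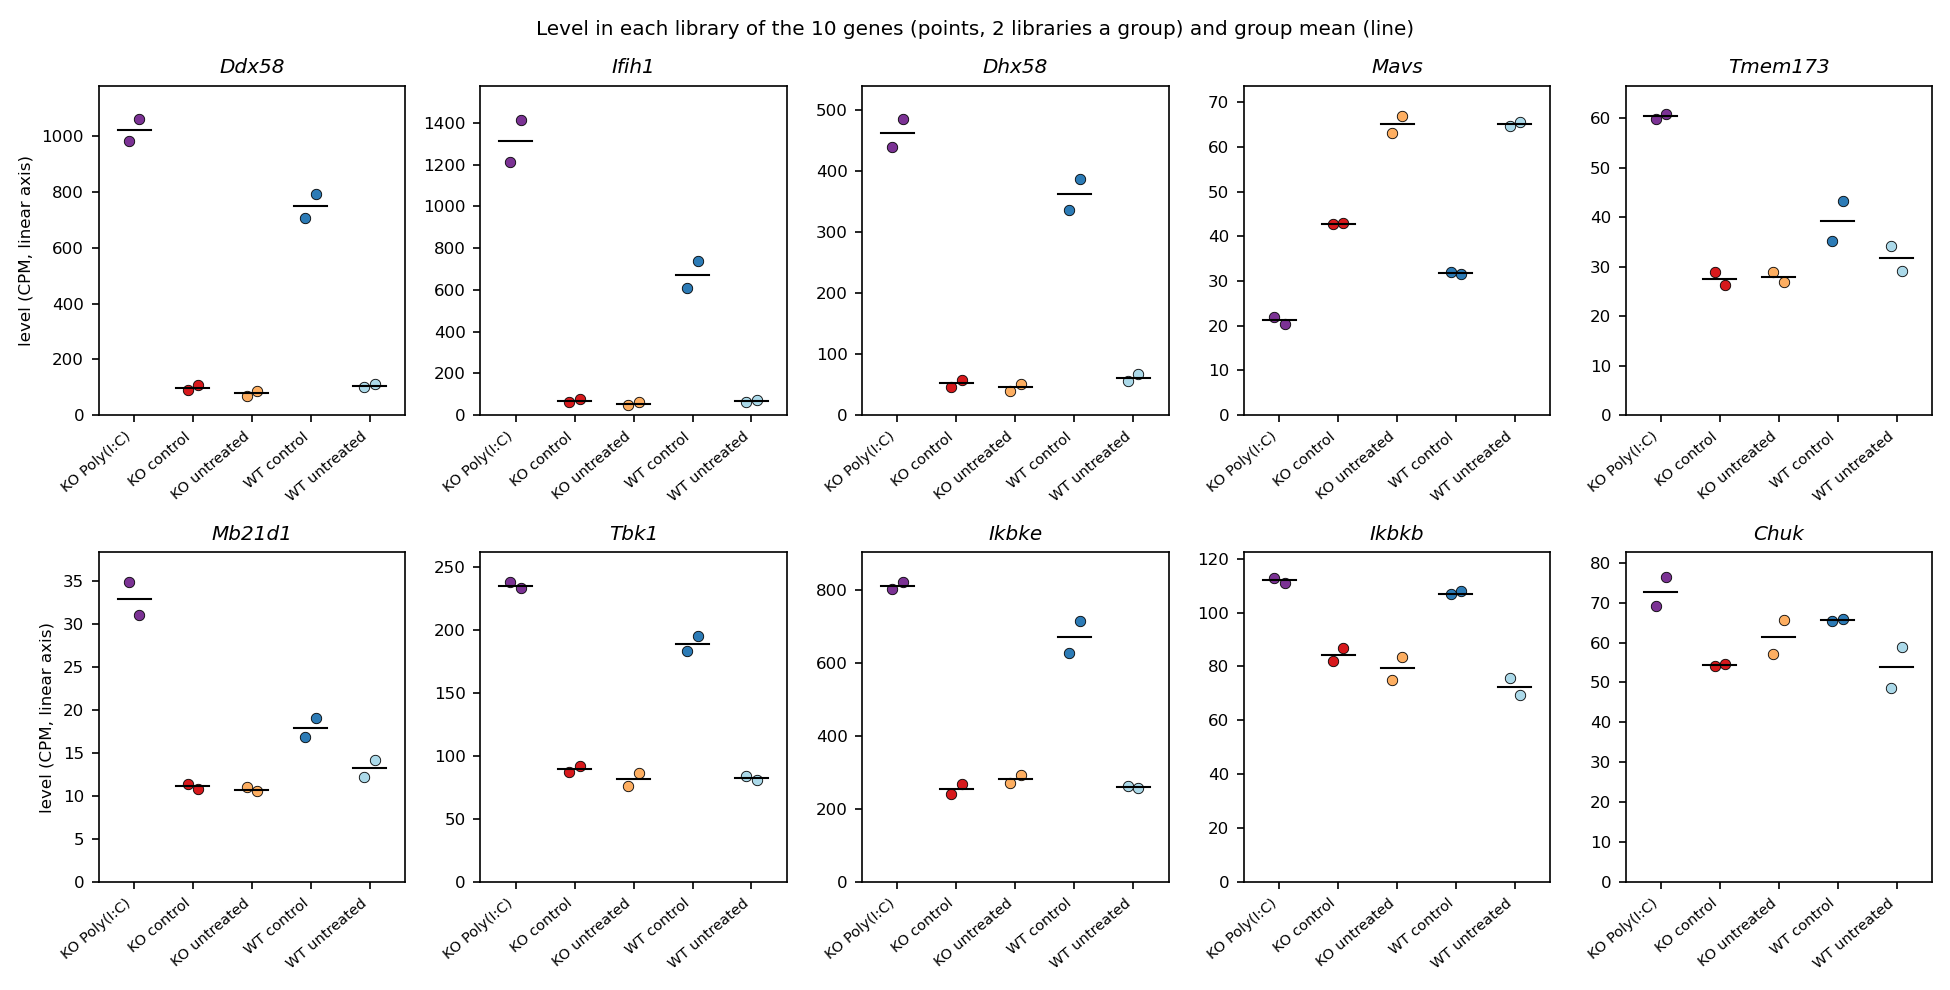
Level (CPM, linear axis starting at 0) of each of the 10 genes in each of the 10 libraries. Points are libraries, 2 per group, and lines are group means. In 9 genes the KO Poly(I:C) and WT control groups have the highest means, and in Mavs they have the lowest, with means of 21.2 and 31.9 CPM.

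Ddx58 (ENSMUSG00000040296, chr4:40203773-40239828, minus strand, GRCm38) encodes RIG-I, which recognises short double-stranded RNA with phosphorylated ends. Its level was 984 and 1062 CPM in KO Poly(I:C) cells, 88.3 and 109 CPM in KO control, 70.0 and 86.1 CPM in KO untreated, 708 and 793 CPM in WT control, and 101 and 111 CPM in WT untreated cells. The KO Poly(I:C) and WT control libraries stood far above the other 6, the KO control and WT untreated groups overlapped, and the KO untreated libraries lay below both. KO control cells had a level 7.64-fold lower than WT control cells (log2 difference -2.93, SE 0.12, adjusted p = 3.53e-08). In KO Poly(I:C) cells the level was 10.4-fold higher than in KO control cells (3.38, SE 0.12, adjusted p = 7.64e-09).

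Ifih1 (ENSMUSG00000026896, chr2:62595798-62646255, minus strand) encodes MDA5, which recognises long double-stranded RNA and is the cytosolic receptor for Poly(I:C). It had 1214 and 1415 CPM in KO Poly(I:C) cells, 61.8 and 76.4 CPM in KO control, 47.1 and 61.9 CPM in KO untreated, 607 and 736 CPM in WT control, and 62.1 and 70.0 CPM in WT untreated cells. The WT untreated values lay within the range of KO control cells, and KO control overlapped KO untreated. This was the widest range among the 10 genes. The level in KO Poly(I:C) cells was 19.0-fold higher than in KO control cells (log2 difference 4.25, SE 0.15, adjusted p = 7.46e-09) and 1.96-fold higher than in WT control cells (0.97, adjusted p = 0.00239). KO control cells were 9.71-fold lower than WT control cells (-3.28, adjusted p = 7.08e-08).

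Dhx58 (ENSMUSG00000017830, chr11:100694884-100704271, minus strand) encodes LGP2, a helicase without the signalling domains of RIG-I and MDA5 that modulates both. Its levels were 440.1 and 486 CPM in KO Poly(I:C) cells, 45.6 and 58.2 CPM in KO control, 40.1 and 51.3 CPM in KO untreated, 337 and 388 CPM in WT control, and 56.3 and 66.7 CPM in WT untreated cells. As for the other RNA helicases, the KO Poly(I:C) and WT control libraries were the 4 highest, and KO control overlapped both untreated groups. The difference of KO Poly(I:C) from KO control cells was 8.96-fold (log2 3.16, SE 0.15, adjusted p = 4.13e-08), and KO control cells were 7.01-fold lower than WT control cells (-2.81, adjusted p = 1.6e-07). Between KO Poly(I:C) and WT control cells Dhx58 did not pass the threshold (0.36, 95% interval 0.02 to 0.69, adjusted p = 0.116). The antisense gene Dhx58os, which overlaps its exons on the other strand, was at 0 in all libraries.

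The share of each helicase in the set is described by ratios, whose differences between groups were not tested. Per kilobase of the principal transcript, RIG-I transcripts were the most abundant of the 3 helicases in all 10 libraries. MDA5 transcripts were the scarcest in 8 of 10 libraries, and LGP2 transcripts in the other 2, which were KO Poly(I:C). This order depends on the length used. Merged exons are 7050 bases for Ddx58, 8165 for Ifih1 and 3272 for Dhx58, against 3874, 5470 and 2412 for the principal transcripts. The ratio of Ddx58 to Ifih1 per kilobase was 1.14 and 1.06 in KO Poly(I:C) cells, 2.02 and 2.01 in KO control, 2.10 and 1.96 in KO untreated, 1.65 and 1.52 in WT control, and 2.30 and 2.24 in WT untreated cells. The lowest ratios were thus in KO Poly(I:C) cells, the next in WT control cells, and neither group overlapped any other. Dhx58 to Ifih1 followed the same order, at 0.822 and 0.780 in KO Poly(I:C) cells, 1.67 and 1.73 in KO control, 1.93 and 1.88 in KO untreated, 1.26 and 1.20 in WT control, and 2.06 and 2.16 in WT untreated cells. Such ratios within a library do not depend on the scaling between libraries. Their size, but not the order of the groups, depends on the lengths used.

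**Figure D2:**
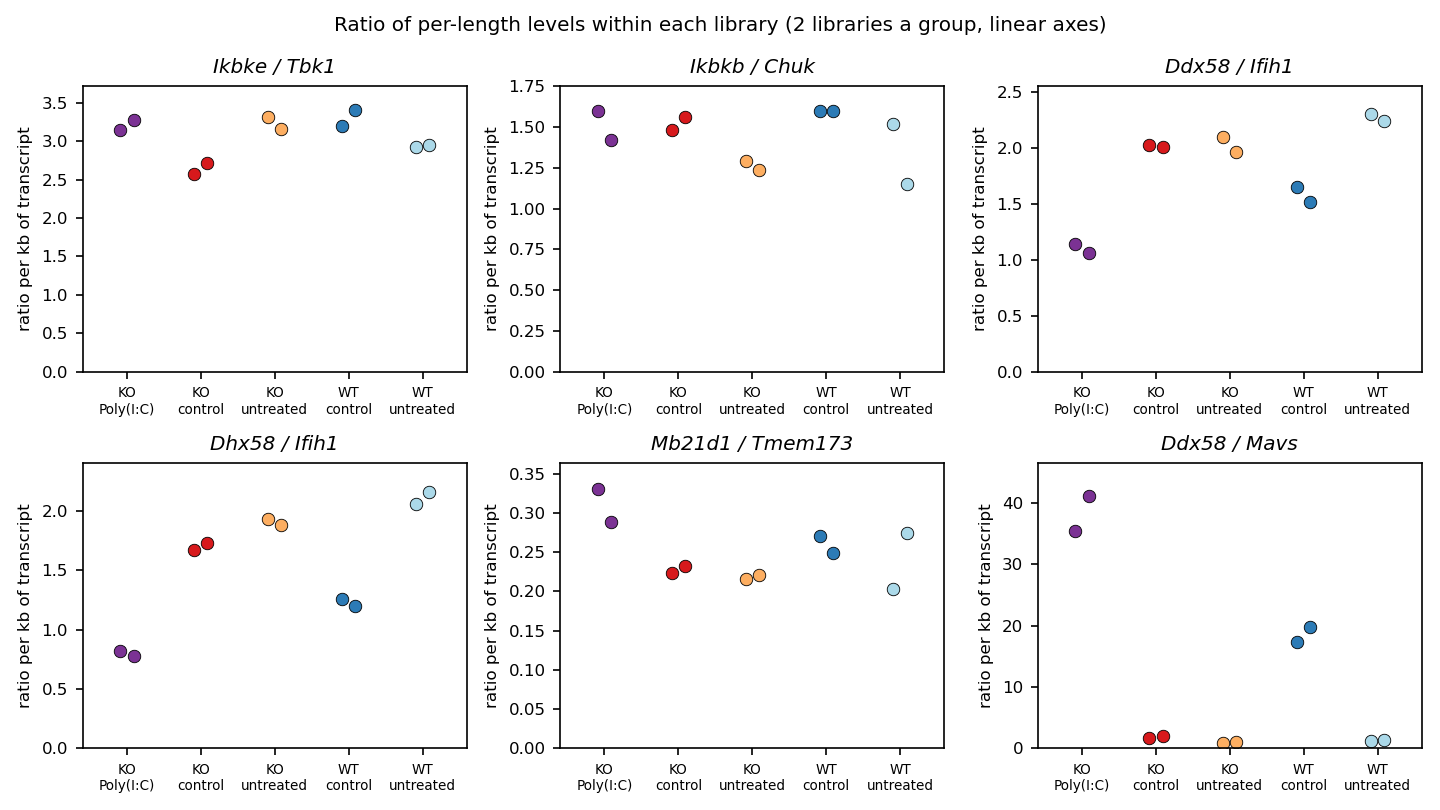
Ratios of per-kilobase levels of pairs of the 10 genes within each library (linear axes starting at 0, points are libraries, 2 per group). Ddx58 to Ifih1 is lowest in KO Poly(I:C) cells at 1.14 and 1.06, and Ikbke to Tbk1 stays between 2.57 and 3.40 in all 10 libraries.

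Mavs (ENSMUSG00000037523, chr2:131234063-131248025, plus strand), the adaptor of RIG-I and MDA5, had 21.9 and 20.4 CPM in KO Poly(I:C) cells, 42.7 and 42.9 CPM in KO control, 63.2 and 67.0 CPM in KO untreated, 32.1 and 31.6 CPM in WT control, and 64.6 and 65.6 CPM in WT untreated cells. KO Poly(I:C) cells were lowest, WT control cells next and KO control cells above them, the untreated groups were highest and overlapped each other, and no other groups overlapped. Mavs fell in the control medium under both genotype labels, by 0.60 (log2, SE 0.07, adjusted p = 0.000574) in KO cells and by 1.03 (adjusted p = 1.09e-06) in WT cells. KO control cells thus had a 1.34-fold higher level than WT control cells (log2 0.42, SE 0.07, adjusted p = 0.000666). In KO Poly(I:C) cells Mavs was 2.02-fold lower than in KO control cells (log2 -1.01, adjusted p = 9.59e-07) and 1.50-fold lower than in WT control cells (-0.59, adjusted p = 0.000852).

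The ratio of receptor to adaptor transcripts is described here, and its differences between groups were not tested. Per kilobase, Ddx58 stood to Mavs as 35.4 and 41.1 in KO Poly(I:C) cells, 1.63 and 2.00 in KO control, 0.873 and 1.01 in KO untreated, 17.4 and 19.8 in WT control, and 1.24 and 1.34 in WT untreated cells. No group overlapped another, with 2 libraries in each. Between KO and WT untreated cells neither Ddx58 (log2 difference -0.45, limma adjusted p = 0.347) nor Mavs (0.00) was called.

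Mb21d1 (ENSMUSG00000032344, chr9:78430526-78443237, minus strand) encodes the DNA sensor cGAS and had 34.8 and 31.0 CPM in KO Poly(I:C) cells, 11.4 and 10.8 CPM in KO control, 11.0 and 10.5 CPM in KO untreated, 16.8 and 19.0 CPM in WT control, and 12.2 and 14.1 CPM in WT untreated cells. KO Poly(I:C) libraries were the highest, and the KO control and KO untreated groups overlapped. KO control cells were 1.61-fold lower than WT control cells (log2 -0.68, SE 0.11, adjusted p = 0.000481). With totals alone this difference came to -0.20 and was not called. The level in KO Poly(I:C) cells was 2.95-fold higher than in KO control cells (log2 1.56, SE 0.11, adjusted p = 9.33e-07) and 1.83-fold higher than in WT control cells (0.88, adjusted p = 0.000966). WT control cells were 1.36-fold higher than WT untreated cells (0.44, adjusted p = 0.00619), a direction that turns to -0.09 with totals alone, and the call was lost without replicate 2 of WT control (0.35). Per kilobase Mb21d1 was the lowest of the 10 genes in all groups but KO Poly(I:C), at 2.74 in KO control and 3.25 CPM per kb in WT untreated cells. The pseudogene Gm8093, which overlaps its exons on the opposite strand, had deposited values of 12 to 34 per library.

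Tmem173 (ENSMUSG00000024349, chr18:35733679-35740554, minus strand) encodes STING, the receptor of cGAMP. It had 59.8 and 60.9 CPM in KO Poly(I:C) cells, 29.0 and 26.3 CPM in KO control, 28.9 and 26.9 CPM in KO untreated, 35.2 and 43.3 CPM in WT control, and 34.2 and 29.1 CPM in WT untreated cells. The KO Poly(I:C) libraries stood alone, and the KO control and KO untreated groups overlapped. Tmem173 was 2.18-fold higher in KO Poly(I:C) than in KO control cells (log2 1.13, SE 0.12, adjusted p = 1.24e-05) and 1.54-fold higher than in WT control cells (0.63, adjusted p = 0.00476). The difference between WT control and WT untreated cells was small (0.31, adjusted p = 0.0399), turned to -0.23 with totals alone, and did not pass without replicate 2 of WT untreated (0.19), replicate 2 of WT control (0.16), either KO control library (0.31) or either KO Poly(I:C) library (0.31). KO control cells were 1.41-fold lower than WT control cells (-0.50, adjusted p = 0.00401), which came to -0.01 with totals alone.

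Tbk1 (ENSMUSG00000020115, chr10:121546455-121586787, minus strand) encodes the kinase that phosphorylates IRF3 downstream of both MAVS and STING. It had 238 and 233 CPM in KO Poly(I:C) cells, 87.1 and 91.8 CPM in KO control, 76.1 and 86.4 CPM in KO untreated, 183 and 195 CPM in WT control, and 83.9 and 80.6 CPM in WT untreated cells. The KO Poly(I:C) and WT control groups stood apart from each other and from the rest, and the untreated groups overlapped. KO Poly(I:C) cells had 2.63-fold more than KO control cells (log2 1.40, SE 0.08, adjusted p = 1.34e-07), and KO control cells 2.11-fold less than WT control cells (-1.08, adjusted p = 1.34e-06).

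Ikbke (ENSMUSG00000042349, chr1:131254343-131279606, minus strand) encodes IKKε, the close relative of TBK1 that is itself induced in stimulated macrophages. Its levels were 803 and 822 CPM in KO Poly(I:C) cells, 240.3 and 268 CPM in KO control, 272 and 293 CPM in KO untreated, 628 and 715 CPM in WT control, and 263 and 256 CPM in WT untreated cells. KO control overlapped WT untreated, and KO untreated lay above both. The level in KO Poly(I:C) cells was 3.20-fold higher than in KO control cells (log2 1.68, SE 0.08, adjusted p = 6.4e-08), and in KO control cells 2.64-fold lower than in WT control cells (-1.40, adjusted p = 3.73e-07). The antisense genes Gm28914 and Gm28913 overlapping Ikbke had deposited values of at most 1.

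These kinases moved nearly in step. Per kilobase, Ikbke exceeded Tbk1 by 2.57 to 3.40 times in every library, lowest in KO control cells (2.57 and 2.71) and highest in a WT control library (3.20 and 3.40 in the pair). With principal transcript lengths, Ikbke was the most abundant of the 10 genes per kilobase in 4 of the 5 groups. It had 78.1 CPM per kb in KO control, 86.8 in KO untreated, 206 in WT control and 79.8 in WT untreated cells. The merged exons of Ikbke are 9018 bases, against 3251 for that transcript, so this rank depends on the length used. In KO Poly(I:C) cells its 249.9 CPM per kb was exceeded by the 264 of Ddx58 and followed by the 240.3 of Ifih1.

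Ikbkb (ENSMUSG00000031537, chr8:22659212-22706589, minus strand) encodes IKKβ, the main kinase of the canonical NF-κB pathway. It had 113 and 111 CPM in KO Poly(I:C) cells, 82.0 and 86.9 CPM in KO control, 75.1 and 83.4 CPM in KO untreated, 107 and 108 CPM in WT control, and 75.7 and 69.3 CPM in WT untreated cells. KO untreated overlapped both KO control and WT untreated. The KO Poly(I:C) level was 1.33-fold above that of KO control cells (log2 0.41, SE 0.08, adjusted p = 0.000895), a difference that turns to -0.31 with totals alone. KO control cells were 1.27-fold lower than WT control cells (-0.35, adjusted p = 0.00303), which turns to 0.14 with totals alone.

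Chuk (ENSMUSG00000025199, chr19:44073335-44107480, minus strand) encodes IKKα, which also acts in the non-canonical NF-κB pathway. It had 69.3 and 76.4 CPM in KO Poly(I:C) cells, 54.2 and 54.6 CPM in KO control, 57.1 and 65.8 CPM in KO untreated, 65.4 and 66.0 CPM in WT control, and 48.6 and 58.9 CPM in WT untreated cells. This was the narrowest range of the 10 genes, and every group but KO Poly(I:C) overlapped at least 1 other. Chuk was 1.34-fold higher in KO Poly(I:C) than in KO control cells (log2 0.42, SE 0.11, adjusted p = 0.00497), which turns to -0.30 with totals alone. Relative to WT control cells, KO control cells were 1.21-fold lower (-0.27, adjusted p = 0.0451), a difference of 0.21 with totals alone. That last call was lost, with log2 differences of -0.28 to -0.27, when any 1 of the 6 KO Poly(I:C), KO control or WT control libraries was left out. The ratio of Ikbkb to Chuk per kilobase was 1.15 to 1.60 in all libraries.

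The design first compares untreated cells labelled KO with untreated cells labelled WT. Here 0 of the 10 genes were called with limma, beside 0.167% of all genes tested (0.0835% higher and 0.0835% lower), while 1146 of all genes had an unadjusted p under 0.05. The largest values were -0.45 for Ddx58 (95% interval -0.73 to -0.17, adjusted p = 0.347), -0.43 for Dhx58 (-0.77 to -0.10, adjusted p = 0.471), -0.29 for Ifih1 (-0.63 to 0.06, adjusted p = 0.642) and -0.29 for Mb21d1 (-0.54 to -0.03, adjusted p = 0.521). Between these groups Ikbke was at 0.12 (-0.07 to 0.31), Ikbkb at 0.13 (-0.05 to 0.30), Chuk at 0.19 (-0.04 to 0.43) and Tmem173 at -0.18 (-0.44 to 0.08). Mavs was at 0.00 (-0.16 to 0.17; -0.01 with totals alone) and Tbk1 at -0.02 (-0.20 to 0.15). When the replicate number was fitted as a block, Ddx58 and Dhx58 were called lower (limma adjusted p = 0.0169 and 0.0238), beside 99 of all genes.

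After 6 h in the control medium, KO and WT cells differed in all 10 genes, with Mavs higher and the other 9 lower in KO control cells. Of all genes tested 61.1% were called, 30.9% higher and 30.2% lower. The median log2 difference of the 10 genes was -0.88, against 0.03 over all genes. With totals alone 6 of the 10 were called, 1 higher and 5 lower, beside 9749 of all 13171 genes (8047 with the trimmed mean). Under that scaling 78.7% of all calls were higher in KO control cells, against 50.6% with the trimmed mean. The same comparison had 6 of the 7 tested neutrophil markers and both tested platelet markers lower in KO control cells, and their part in it was not tested.

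In WT cells the control medium differed from no treatment in all 10 genes, 9 higher and Mavs lower, where 65.8% of all genes were called (33.1% higher and 32.8% lower). Ifih1 was 10.1-fold higher in WT control than in WT untreated cells (log2 3.34, SE 0.15, adjusted p = 5.27e-08), Ddx58 7.06-fold (2.82, adjusted p = 3.77e-08) and Dhx58 5.89-fold (2.56, adjusted p = 2.54e-07). Ikbke was 2.58-fold higher (1.37, adjusted p = 3.71e-07) and Tbk1 2.30-fold (1.20, adjusted p = 5.28e-07). Ikbkb was 1.48-fold higher (0.57, adjusted p = 0.000106; 0.04 with totals alone), while Chuk at 1.23-fold (0.30, adjusted p = 0.0301) turns to -0.24 with totals alone and did not pass without replicate 1 of WT untreated (0.16) or without either WT control library (0.30 and 0.29). The median of the 10 genes was 0.88, against -0.01 over all genes. With totals alone 5 were higher and 2 lower, beside 9956 of all 13171 genes called (8672 with the trimmed mean). Under that scaling 22.8% of all calls were higher, against 50.2% with the trimmed mean. Of the 7 tested neutrophil markers 5 were higher in WT control cells and of the 2 platelet markers 1 was lower, and their part was not tested. Medium and time come together in this comparison and cannot be told apart.

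In KO cells the same medium left 9 of the 10 genes without a call in the fit without a replicate block. Mavs alone was called, lower in KO control cells, where 20.0% of all genes were called (10.9% higher and 9.08% lower). Ddx58 differed by 0.34 (95% interval 0.06 to 0.61, adjusted p = 0.0854), Ifih1 by 0.35 (0.00 to 0.69, adjusted p = 0.149) and Dhx58 by 0.18 (-0.15 to 0.52, adjusted p = 0.443). For Ikbke, the difference was -0.15 (-0.34 to 0.04, adjusted p = 0.241). When the replicate number was fitted as a block, Ddx58 and Ifih1 were called too, higher in KO control cells (limma adjusted p = 0.00574 and 0.00435). The labels do not say what that number marks. In this comparison 2 of the 7 tested neutrophil markers and both platelet markers were lower in KO control cells, and their part was not tested. The upper ends of the intervals for these 4 genes lie below the lower ends for WT cells, which were 2.54 for Ddx58, 2.99 for Ifih1, 2.22 for Dhx58 and 1.18 for Ikbke.

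The difference between these responses was tested as an interaction, the change in KO cells minus the change in WT cells. It was called for 8 of the 10 genes, 1 higher and 7 lower, where 45.7% of all genes were called (22.0% higher and 23.7% lower), with a median of -0.77 against 0.04 over all genes. The interaction was -2.99 for Ifih1 (SE 0.22, adjusted p = 3.89e-06), -2.48 for Ddx58 (adjusted p = 3.27e-06), -2.38 for Dhx58 (adjusted p = 1.44e-05), -1.52 for Ikbke (adjusted p = 6.44e-06) and -1.06 for Tbk1 (adjusted p = 4.06e-05). Mavs had a smaller fall in KO cells (0.42, adjusted p = 0.00805), a call lost with the deposited scaling (0.26). Ikbkb (-0.48, adjusted p = 0.00556) turns to 0.02 and Chuk (-0.47, adjusted p = 0.0268) to 0.03 with totals alone, and Chuk was not called when any 1 of 6 libraries was left out, namely replicate 1 of WT untreated, replicate 2 of KO untreated and each WT control and KO control library (-0.47 to -0.33). Mb21d1 at -0.40 (adjusted p = 0.0683; 0.09 with totals alone) and Tmem173 at -0.32 (adjusted p = 0.142; 0.17 with totals alone) did not pass. Of the 7 tested neutrophil markers 5 were lower in this interaction, and their part was not tested. With the deposited scaling 0 of the 10 genes were higher and 9 lower. With totals alone 6 of the 10 were called, 1 higher and 5 lower, and 79.4% of all calls were higher, against 48.2%.

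**Figure D3:**
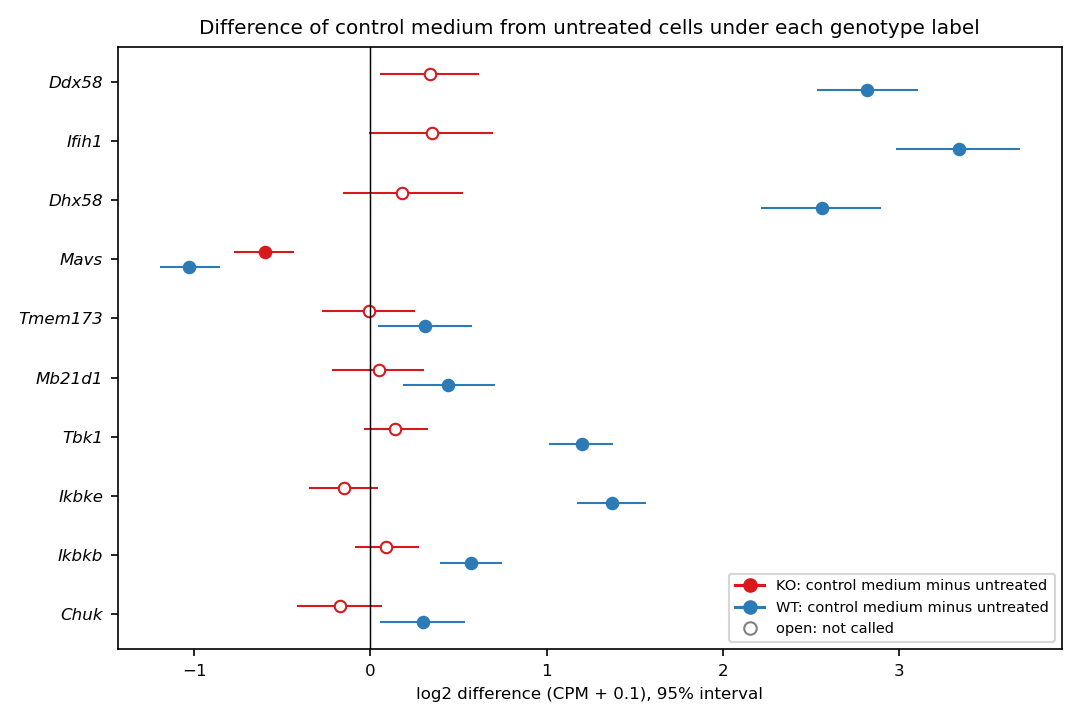
Log2 difference of control medium from untreated cells for each of the 10 genes in KO and in WT cells (x axis, log2 of CPM + 0.1, with 95% intervals, 2 libraries per group). Filled points were called and open points were not. Only Mavs is filled for KO cells, at -0.60, while all 10 are filled for WT cells, from -1.03 for Mavs to 3.34 for Ifih1.

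Poly(I:C) was tested in cells with the KO label. Against KO control cells all 10 genes were called, 9 higher and Mavs lower, where 69.4% of all genes were called (32.5% higher and 36.9% lower). The median of the 10 genes was 1.48, against -0.06 over all genes. With totals alone 7 were higher and 3 lower, beside 10963 of all 13171 genes called. Under that scaling 19% of all calls were higher, against 46.8% with the trimmed mean. The summed level of the helicases was 2637 and 2963 CPM in KO Poly(I:C) cells and 196 and 243 CPM in KO control cells. Here 6 of the 7 tested neutrophil markers and both platelet markers were also higher in KO Poly(I:C) cells, and their part was not tested. The labels do not say whether the Poly(I:C) medium held the same serum and albumin, so a difference of medium and Poly(I:C) cannot be told apart.

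Against KO untreated cells 8 genes were higher and 1 lower, where 72.1% of all genes were called (34.5% higher and 37.6% lower). Ifih1 was 24.2-fold higher in KO Poly(I:C) than in KO untreated cells, Ddx58 13.2-fold, Dhx58 10.2-fold, Mb21d1 3.04-fold, Tbk1 2.90-fold, Ikbke 2.88-fold and Tmem173 2.16-fold, and Mavs was 3.07-fold lower. Ikbkb was 1.42-fold higher (log2 0.50), which turns to -0.25 with totals alone. Chuk did not pass (0.25, 95% interval 0.01 to 0.48, adjusted p = 0.0558), and with totals alone it was called in the other direction, lower in KO Poly(I:C) cells (-0.51, adjusted p = 0.000551). With totals alone 7 genes were higher and 3 lower, beside 10921 of all 13171 genes called. Under that scaling 20.3% of all calls were higher, against 47.8% with the trimmed mean. Of the 7 tested neutrophil markers 5 were higher and of the 2 platelet markers 1 was lower in KO Poly(I:C) cells, and their part was not tested. Both Poly(I:C) comparisons use the same KO Poly(I:C) libraries.

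KO Poly(I:C) and WT control cells, the groups in which 9 of the genes were highest, differ in genotype label and treatment together. Between them 6 genes were higher and 1 lower in KO Poly(I:C) cells, where 23.7% of all genes were called (11.9% higher and 11.9% lower), with a median of 0.34 against -0.03. Differences were 0.97 in Ifih1, 0.88 in Mb21d1, 0.63 in Tmem173, 0.45 in Ddx58 (limma adjusted p = 0.0273), 0.32 in Tbk1 (adjusted p = 0.0167) and 0.28 in Ikbke (adjusted p = 0.0391). The calls for the last 3 of these were lost without replicate 1 of WT control, replicate 1 of KO Poly(I:C) or replicate 2 of KO Poly(I:C), each of which left 4 genes called (3 higher and 1 lower), the number left with totals alone too. Of all 13171 genes 5001 were called with totals alone, against 3128 with the trimmed mean. Ikbkb (0.06, 95% interval -0.11 to 0.23; -0.17 with totals alone) and Chuk (0.15, -0.09 to 0.38; -0.08 with totals alone) did not pass. None of the 7 tested neutrophil markers and neither platelet marker was called between these groups.

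**Figure D4:**
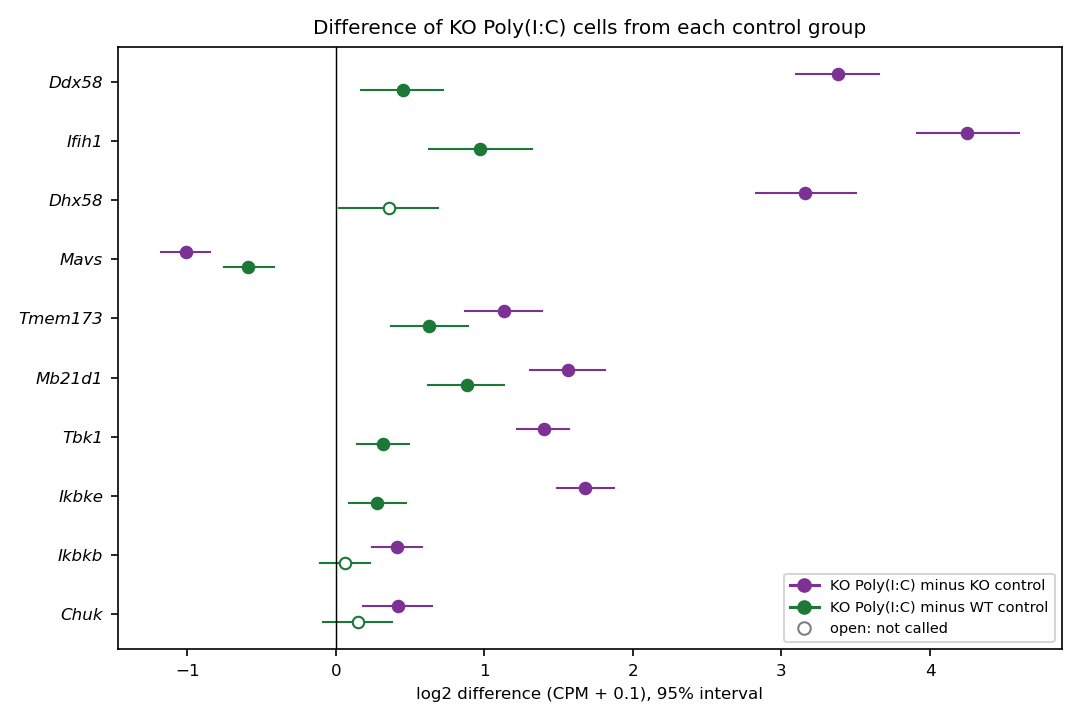
Log2 difference of KO Poly(I:C) cells from KO control and from WT control cells for each of the 10 genes (x axis, log2 of CPM + 0.1, with 95% intervals, 2 libraries per group, filled points called, open points not called). Against KO control cells all points are filled, from -1.01 for Mavs to 4.25 for Ifih1, and against WT control cells the points lie between -0.59 and 0.97.

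Among the 10 genes, the profiles over groups that lay closest were those of Tbk1 and Ikbke. The distance between their 4 group means, each relative to WT untreated cells, was 0.30 on the log2 scale. Next came Ikbkb and Chuk (0.39), Tmem173 and Mb21d1 (0.43) and Ddx58 and Dhx58 (0.46), and the farthest apart were Ifih1 and Mavs (7.40). Among the genes tested, the nearest to Ifih1 were Nt5c3 (0.20), Abtb2 (0.27) and Cd274 (0.29), and among those nearest to Ddx58 were Fst (0.14) and Mlkl (0.15). Dhx58 was nearest to Gm5960 (0.14), Oas1g (0.25) and Ifit1bl2 (0.26). The profile of Mavs was closest to Prune1 (0.09), Wipi1 (0.15) and Aatk (0.16). For Tbk1 they were Ptk2b (0.06), Ppp4r1 (0.07) and Coa5 (0.10), and for Ikbke Gm6611 (0.15), Gm16589 (0.17) and Tmem50b (0.18). Tmem173 was nearest to Gla (0.12), Polb (0.14) and Fez2 (0.16), and Mb21d1 to Vrk1 (0.17), Mtmr11 (0.23) and Atp6v1d (0.24). Ikbkb was nearest to 1810022K09Rik (0.07), Slc35b3 (0.08) and Ginm1 (0.09), and Chuk to Col4a3bp (0.07), Ube2w (0.08) and Sar1b (0.08). These distances rest on 5 group means of 2 libraries each.

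Genes that act with the 10 were followed in 4 lists. Of 14 regulators and effectors of the RIG-I-like receptors, 12 were tested and Rnf125 and Trim31 were not. In KO Poly(I:C) against KO control cells 8 were higher and 2 lower, or 83.3% called beside the 69.4% of all genes, with a median of 0.92 against -0.06 over all genes, and with totals alone 6 were higher and 6 lower. Ddx60, a helicase reported to aid RIG-I, averaged 405 ± 62.0 CPM in KO Poly(I:C) and 35.0 ± 8.29 CPM in KO control cells (SD, n = 2 each; log2 3.54, limma adjusted p = 2.17e-07). Trim25, the ubiquitin ligase that activates RIG-I, averaged 794 ± 34.1 and 149 ± 18.9 CPM in the same groups (2.42). Nlrx1, a mitochondrial protein described as an inhibitor of MAVS, was lower (-1.16), as was Tkfc, described as an inhibitor of MDA5 (-0.42). In WT control against WT untreated cells 9 were higher and 2 lower (91.7% called, beside 65.8% of all genes; 6 and 5 with totals alone), led by the same Ddx60 (2.76) and Trim25 (1.50), with Tkfc (-0.53) and Nlrx1 (-0.50) lower. In KO control against WT control cells 2 were higher (Nlrx1 0.84 and Tkfc 0.59) and 7 lower, Ddx60 (-2.78) and Trim25 (-1.76) first (75.0% called, beside 61.1% of all genes), and with totals alone 6 were higher and 5 lower.

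Of 15 regulators of cGAS and STING and enzymes that degrade DNA, the share called was near that of all genes in the comparisons of KO Poly(I:C) with KO control, WT control with WT untreated and KO control with WT control cells. In KO Poly(I:C) against KO control cells 3 were higher and 8 lower (3 and 12 with totals alone), or 73.3% called beside the 69.4% of all genes and 53.3% lower beside 36.9%, with a median of -0.37 against -0.06 over all genes. Trex1, the exonuclease that removes cytosolic DNA, averaged 508 ± 12.3 CPM in KO Poly(I:C) and 48.4 ± 5.94 CPM in KO control cells (SD, n = 2 each; log2 3.39, limma adjusted p = 2.52e-08). Samhd1, a nucleotide hydrolase, averaged 3115 ± 42.0 CPM and 529 ± 42.0 CPM in these groups (2.56). Slc19a1, a transporter of cyclic dinucleotides in human cells (-1.33), and Ulk1, an autophagy kinase (-1.26), were lower. In WT control against WT untreated cells 3 were higher and 7 lower (66.7% called, beside 65.8% of all genes; 3 and 12 with totals alone), with Trex1 at 3.24 and Samhd1 at 2.26, and with the nucleases Dnase2a at -1.16 and Rnaseh2c at -1.15. In KO control against WT control cells 7 were higher, led by Ulk1 (1.04) and Dnase2a (0.93), and 3 lower, led by Trex1 (-2.91) and Samhd1 (-1.87) (66.7% called, beside 61.1%), and with totals alone 10 were higher and 3 lower.

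Among 17 other nucleic acid sensors, 11 were higher and 3 lower in KO Poly(I:C) than in KO control cells (10 and 6 with totals alone), or 82.4% called beside the 69.4% of all genes, with a median of 2.07 against -0.06. Zbp1, a sensor of Z-form nucleic acids, averaged 750.0 ± 19.9 CPM in KO Poly(I:C) and 34.3 ± 5.38 CPM in KO control cells (SD, n = 2 each; log2 4.46, limma adjusted p = 2.82e-08). Tlr3, the endosomal receptor for double-stranded RNA and Poly(I:C), averaged 180.5 ± 20.7 CPM and 10.8 ± 0.374 CPM in these groups (4.05). The helicase Dhx33 (-0.77) and Tlr13, a receptor for bacterial RNA (-0.72), were lower. In WT control against WT untreated cells 10 were higher and 2 lower (70.6% called, beside 65.8% of all genes; 10 and 5 with totals alone), with Zbp1 at 3.78 and the DNA sensor Ifi204 at 3.26, and with Tlr13 at -0.35 among those lower. In KO control against WT control cells 2 were higher (Dhx33, at 0.40, among them) and 11 lower (Zbp1 -3.94 and Ifi204 -3.30 first), or 76.5% called beside 61.1%, and with totals alone 5 were higher and 10 lower.

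Of 16 partners and substrates of the IKK and TBK1 kinases, 11 were higher and 2 lower in KO Poly(I:C) than in KO control cells, a split that turned to 6 higher and 8 lower with totals alone. Of this list 81.2% were called, beside 69.4% of all genes, and the median was 0.54 against -0.06. Irf7, a substrate of TBK1 and IKKε, averaged 2759 ± 120.0 CPM in KO Poly(I:C) and 83.5 ± 13.3 CPM in KO control cells (SD, n = 2 each; log2 5.05, limma adjusted p = 1.36e-08). Tank, an adaptor of both kinases, averaged 378 ± 35.3 CPM and 61.2 ± 0.581 CPM in these groups (2.62), and Map3k14 (-0.65) and Map3k7 (-0.28), kinases upstream of the IKKs, were lower. In WT control against WT untreated cells 13 were higher and 0 lower (81.2% called, beside 65.8% of all genes; 9 and 4 with totals alone), led by Irf7 (4.35) and the NF-κB inhibitor gene Nfkbia (2.31). In KO control against WT control cells 1 was higher, Map3k7 at 0.21, and 12 lower, led by Irf7 (-4.49) and Tank (-2.12) (81.2% called, beside 61.1%). The split was 5 and 8 under totals alone, and 0 and 12 with the deposited scaling, where the call for Map3k7 was lost.

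In KO control against KO untreated cells 16.7% of the regulators of RIG-I-like receptors, 33.3% of the cGAS and STING list, 17.6% of the other sensors and 37.5% of the kinase partners were called, beside 20.0% of all genes. These were 1 higher and 1 lower of 12 regulators of RIG-I-like receptors (G3bp1 0.30 and Pcbp2 -0.19), 3 and 2 of 15 in the cGAS and STING list (Trex1 0.67 and Samhd1 0.51 higher, Dnase2a -0.29 and Stim1 -0.25 lower), 3 and 0 of 17 other sensors (Oas3 0.62 and Dhx33 0.52) and 6 and 0 of 16 kinase partners (Irf7 0.74 and Traf3 0.52). With totals alone these splits were 0 and 1, 3 and 2, 2 and 2, and 5 and 0, and with the deposited scaling the cGAS and STING list had 3 higher and 1 lower. Between KO and WT untreated cells 0 genes were called in the 4 lists together.

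**Figure D5:**
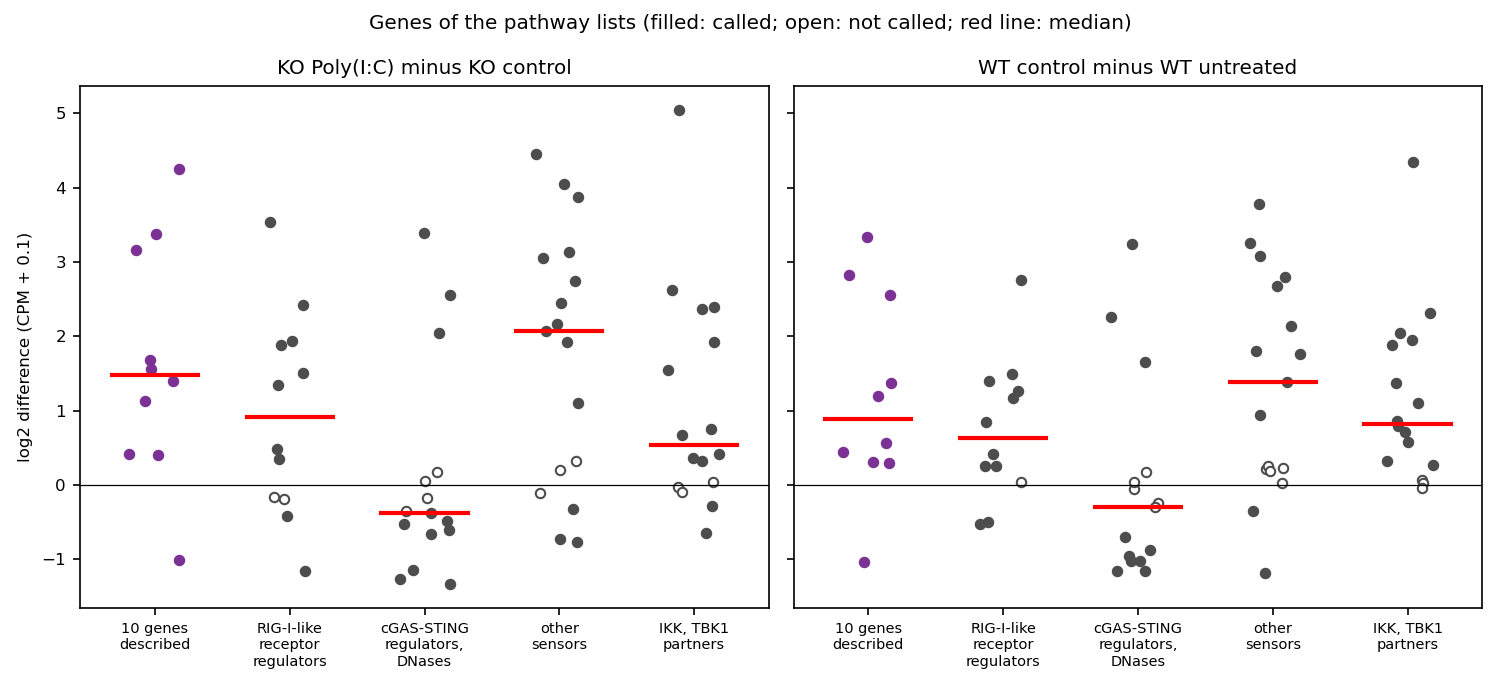
Log2 difference (y axis, log2 of CPM + 0.1) of every tested gene of the 10 described and of the 4 pathway lists, for KO Poly(I:C) minus KO control cells and for WT control minus WT untreated cells. Filled points were called, open points were not, and red lines are medians, which for the 10 genes are 1.48 and 0.88 and for the cGAS and STING list -0.37 and -0.30.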

How the data were processed

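RNA was sequenced with a stranded mRNA kit, per the labels' protocols. Tools named in the submitters' processing notes are STAR 2.4.0d, RSEM 1.2.12, DESeq2 and Trim Galore 0.2.8. Roles, settings and genome build are not given in the sources used here. A table deposited by the authors holds a whole number for each gene in each library, used here as a signal: in 6 of the 10 libraries some whole numbers from 1 to 24 were never taken, so the values are not raw counts and the read depth behind them is unknown. The deposited rlog table is on a log2 scale and was used as an alternative.

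Groups and replicate numbers came from the sample titles. Of 45318 identifiers 44585 had a symbol, from GENCODE M21 or, for identifiers absent from it, from a second list of gene names. The GRCm38 coordinates of GENCODE M21 are printed, whether or not the authors used that build. CPM were computed with library totals times trimmed-mean factors (trimming 30% of M and 5% of A values). The filter kept the 13171 of 20687 genes above 0 that reached 10 in 2 or more libraries. The test was limma 3.58.1 in R 4.3.3 with a trend on log2(CPM + 0.1), 1 coefficient per group over all 10 libraries (5 residual and 4.82 prior degrees of freedom), with Benjamini-Hochberg adjustment over all genes. The pseudocount understates differences of low genes. Levels per kilobase use the length of the principal transcript, and the order of genes by such levels depends on that choice. The script was tested on simulated data. No column of sample values was left unmapped.

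The 10 genes, the 4 pathway lists and the marker lists were chosen with earlier results of these data known. Named genes are the 10, in each list and comparison up to 2 called genes with the largest positive and up to 2 with the largest negative difference, the 3 genes nearest in profile to each of the 10, and Tlr4. Scaling, pseudocount, filter, samples fitted, a replicate block, the rlog table and single libraries left out were varied. A few genes that these rules name are not reported here.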

Additional observations from a re-analysis of the deposited data

Results flagged for a closer look

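The change from untreated cells to the control medium differed between cells labelled KO and WT in 8 of the 10 genes, by a test of the difference itself (the interaction in limma, adjusted p under 0.05 over all genes). The same test called 45.7% of all 13171 genes. With totals alone 6 of the 10 were called, 1 higher and 5 lower. The interaction was -2.48 for Ddx58, -2.99 for Ifih1, -2.38 for Dhx58, -1.06 for Tbk1 and -1.52 for Ikbke on the log2 scale, which is a smaller difference from untreated cells in KO than in WT cells. For Mavs it was 0.42, a smaller fall in KO cells, and this call was lost with the deposited scaling (0.26). For Ikbkb it was -0.48 and for Chuk -0.47, with signs that turn with totals alone. Every one of these rests on 2 libraries in each of 4 groups.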

How the results depend on the processing

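Of 1600 values of single genes under 20 other settings, 1513 kept their direction and their side of the threshold. Of the rest, 45 lost their call, 19 gained one and 23 changed sign, 16 of these with totals alone. Many of the 1600 could hardly change, since leaving out a library of a group outside a comparison does not alter its difference. With totals alone 58 of 80 values were kept. With totals alone the number of the 10 genes called was 6 between KO control and WT control cells (10 with the trimmed mean) and 4 between KO Poly(I:C) and WT control cells (7), and leaving out single libraries gave 4 to 7 in the last comparison. Signs turned with totals alone for Mavs between KO and WT untreated cells (-0.01), for Ikbkb (0.14) and Chuk (0.21) between KO control and WT control cells, for Tmem173 (-0.23), Mb21d1 (-0.09) and Chuk (-0.24) between WT control and WT untreated cells, for Ikbkb (-0.31, -0.25 and -0.17) and Chuk (-0.30, -0.51 and -0.08) in KO Poly(I:C) against KO control, KO untreated and WT control cells, and for the interactions of Tmem173 (0.17), Mb21d1 (0.09), Ikbkb (0.02) and Chuk (0.03). With the deposited scaling Mavs came to -0.02 between KO and WT untreated cells. Leaving out single libraries gave -0.04 to 0.04 for Mavs and -0.11 to 0.07 for Tbk1 between KO and WT untreated cells, and -0.08 to 0.06 for Tmem173 between KO control and KO untreated cells, all uncalled.

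Calls were also lost without a filter for Chuk between KO control and WT control cells, for Tmem173 between WT control and WT untreated cells, and for Ddx58 and Ikbke between KO Poly(I:C) and WT control cells. With only the groups compared, Tmem173 and Chuk between WT control and WT untreated cells and Ikbke between KO Poly(I:C) and WT control cells were lost, and Dhx58 was gained there. The cause was not tested. Between KO control and KO untreated cells 1 regulator of RIG-I-like receptors was called with totals alone and 0 with the deposited scaling, against 2, and in the interaction 16 other sensors were called with totals alone (6 higher and 10 lower), against 10. Within 150 bases up to the start, 0 genes held the interferon-stimulated response element core, against 2, since both matches lie after the start.

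Over all genes, 22 calls between KO and WT untreated cells became 14 without a filter and 2 with only the groups compared, and 11 to 69 without single libraries. The 2632 calls between KO control and KO untreated cells came to 1037 to 2830 without single libraries. The 3128 between KO Poly(I:C) and WT control cells became 5001 with totals alone (764 higher and 4237 lower) and 1241 to 3355 without single libraries. The deposited scaling moved the share of all calls that were higher to 37.5% for KO control against WT control cells (50.6%), to 58.1% for KO Poly(I:C) against KO control cells (46.8%) and to 35% for the interaction (48.2%). Totals alone moved it to 38.7% between KO and WT untreated cells (50%). The 8047 calls between KO control and WT control cells became 9749 with totals alone.

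The labels do not say what a replicate number marks, and with 2 numbers the pairing was not settled. Deviations of libraries with the same number from their group means correlated at 0.17 to 0.32 between groups of the same genotype label and at 0.01 to 0.11 between genotype labels, and library 2 was above library 1 for Ddx58, Ifih1 and Dhx58 in all 5 groups. With the replicate number as a block, 2 of the 10 genes were called between KO and WT untreated cells (Ddx58 and Dhx58, both lower), against 0, 3 between KO control and KO untreated cells (Ddx58 at 0.34, adjusted p = 0.00574, and Ifih1 at 0.35, adjusted p = 0.00435, besides Mavs), against 1, and over all genes 99 between KO and WT untreated cells (27 higher and 72 lower), against 22. Chuk in KO Poly(I:C) against KO untreated and Dhx58 against WT control cells were called too.

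With 2 libraries per group the spread of each gene is estimated from its 5 groups together and from a trend over all genes. The first has 5 residual and the second 4.82 prior degrees of freedom. The read depth is unknown, so no counting interval is given, and differences of the size of those of Chuk and Ikbkb cannot be told from a shift in scaling. The same holds for Mb21d1 and Tmem173 between KO control and WT control cells (-0.20 and -0.01 with totals alone).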

Other observations

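The deposited rlog table, which was made by the authors with their own scaling, left 78 of the 80 differences of the 10 genes on the same side of the threshold and with the same sign, and made 2 more pass: Chuk between KO Poly(I:C) and KO untreated cells (0.30) and the interaction of Mb21d1 (-0.41). Summed over the 10 genes, the level was 3977 and 4319 CPM in KO Poly(I:C) cells, 742 and 824 CPM in KO control, 740.1 and 832 CPM in KO untreated, 2718 and 3096 CPM in WT control, and 802 and 821 CPM in WT untreated cells. The untreated groups and KO control cells overlapped in this sum.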
